A study of Mus musculus with 20 samples.

Results

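The heart was examined as one of 5 tissues in which the transcriptomes of wild-type (WT) and Nsun6 knockout (KO) mice were compared by RNA-seq, and its libraries were chosen as the count columns whose header names the heart. They are 4 of the 20 libraries of the study, 2 WT and 2 KO, numbered replicate 1 and replicate 2 within each genotype. WT mice were C57BL/6J, and KO mice carried the homozygous CRISPR/Cas9 deletion of exons 3 and 4 of Nsun6 on this background and came from matings of heterozygotes. All mice were females of 8 weeks without further treatment, and RNA was taken from snap-frozen whole tissue, so that every cell of the dissected piece contributed to a library. The sources used here do not say how the heart was cut from the vessels, the lung root, and the fat around it, nor whether a replicate number marks litter mates, a dissection day, or a sequencing run. KO was compared with WT within each replicate number, and genes with the same direction in both pairs were then collected. Replicate 2 columns carry the addition "pre" in their header and were sequenced more deeply, with 36090637 counts in WT and 41763236 in KO, against 17959542 and 15897446 in replicate 1.

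Nsun6 encodes a methyltransferase that places 5-methylcytosine (m5C) on transfer RNA and on mRNA, where it favours the sequence CUCCA, and other enzymes of the Nsun family methylate other sites. The mammalian heart is built of ventricles, whose cardiomyocytes carry the ventricular myosin light chains, and of atria, whose thinner muscle uses its own light chains and secretes the hormone ANP. Around and within this muscle lie endothelium, fibroblasts, the mesothelium of the epicardium, nerves, fat of the epicardium and the mediastinum, and blood. The trachea, the bronchi, the thymus, and lymph nodes adjoin the base of the heart.

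The part of Nsun6 (ENSMUSG00000026707) that the KO allele lacks is shown here because the count of the whole gene does not measure it. In GRCm38 with the GENCODE annotation, exon 3 spans chr2:15042227-15042306 and exon 4 spans chr2:15039733-15039842, both on the minus strand. They hold 80 and 110 bases, all of them coding sequence, and capitals mark the deleted bases.
Nsun6 exon 3: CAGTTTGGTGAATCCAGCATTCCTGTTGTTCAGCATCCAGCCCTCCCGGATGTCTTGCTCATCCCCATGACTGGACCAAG
Nsun6 exon 4: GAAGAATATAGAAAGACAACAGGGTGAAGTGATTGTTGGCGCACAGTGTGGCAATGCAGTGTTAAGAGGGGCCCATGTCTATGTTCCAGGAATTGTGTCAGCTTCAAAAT
Reads from the other exons still count toward the gene. Nsun6 had 6.62 and 6.27 CPM in WT and 5.57 and 5.11 CPM in KO, where CPM is the count scaled to library size after TMM normalization. The log2 fold change of KO over WT was -0.27 (SE 0.33), SE being the standard error. Both KO values lay below both WT values, by less than the standard error of the difference, and the level of the whole gene is no check of genotype. Counts of the Y-linked genes Ddx3y, Uty, Kdm5d, and Eif2s3y were 0 in all 4 libraries and Xist was counted in each, as for female tissue.

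With edgeR's quasi-likelihood test on the 16632 genes that passed the filter on low counts, 0 genes (0.0%) were higher and 0 genes (0.0%) were lower in KO at the threshold, which was an adjusted p (Benjamini-Hochberg) below 0.1 together with a change of more than 2-fold. The smallest adjusted p was 0.99998, so that adjusted p-values of single genes are given below only for Nppa and Fos. Without adjustment, p was under 0.05 for 31 genes (0.186%) higher in KO and 86 (0.517%) lower in KO. DESeq2 called 0 genes higher and 3 lower (Cyp2f2, Scgb3a2, and Glycam1). A replicate block, an edgeR fit in which the pairing by number enters, called 0 genes higher and 6 lower. These 6 were Bpifa1, Nppa, Cyp2f2, Ucp1, Scgb3a2, and Scgb1a1, and the smallest adjusted p of that fit was 5.3e-06. Within the pairs, 3195 genes (19.2%) were higher in KO in both and 3665 (22%) were lower in both. Every count below of list members higher or lower in both pairs is to be read beside these shares. A change over 2-fold in both pairs was found for 59 genes upward (0.355%) and 153 genes downward (0.92%). Irrespective of the replicate number, both KO libraries were above both WT libraries for 1258 genes (7.56%) and below them for 1606 genes (9.66%). The pairs use no common library, and across the 16632 genes Pearson's r between their log2 ratios was -0.0677, a description in which genes are not independent. The median log2 fold change of all genes tested was -0.00901. With 2 libraries against 2, an exact two-sided permutation test of a single value cannot give a p below 0.333, so no such test is given.

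**Figure D1:**
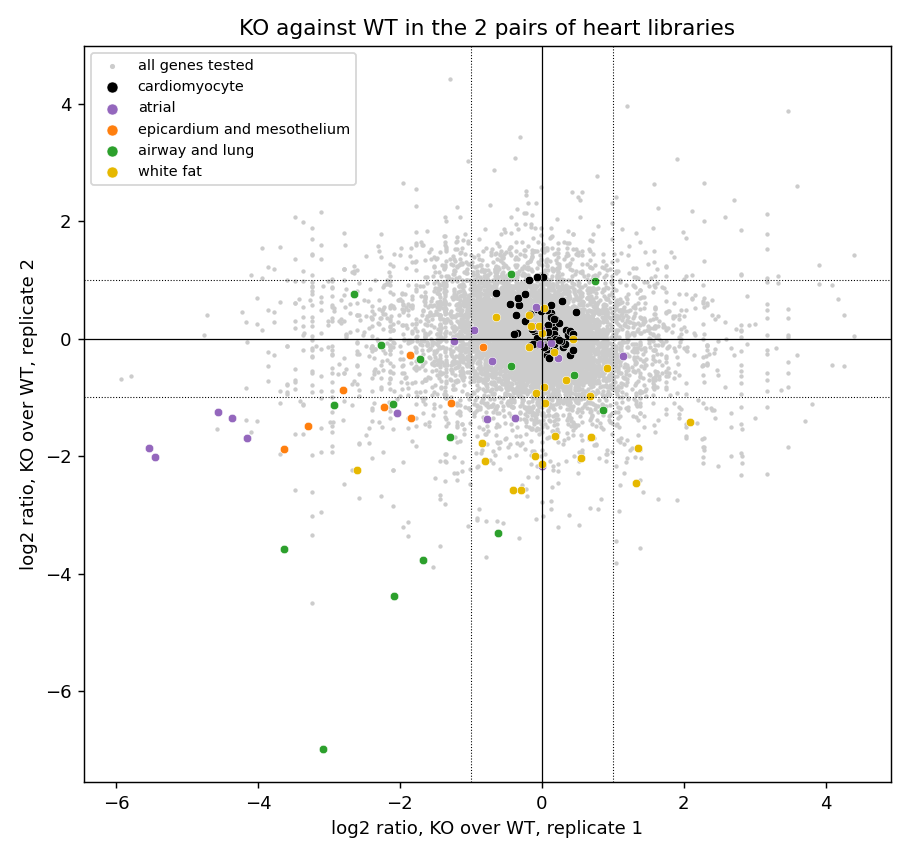
Each point is a gene, with the log2 ratio of KO over WT in replicate 1 on the horizontal axis and in replicate 2 on the vertical axis (prior count of 2), gray for all 16632 genes tested and colored for 5 gene lists. Dotted lines mark a 2-fold change. Cardiomyocyte genes lie around 0 in both pairs, atrial genes reach the lower left mainly through replicate 1, and most white fat genes fall below the horizontal line through 0 in replicate 2.

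The libraries were more alike by replicate number than by genotype. Pearson's r of log2 CPM was 0.9689 between WT and KO in replicate 1 and 0.9783 in replicate 2, against 0.9607 between the WT libraries and 0.9527 between the KO libraries. The first principal component, with 55.5% of the variance, separated replicate 1 from replicate 2. A pair of libraries stood apart in single groups of genes. KO replicate 1 had the lowest summed levels of atrial and mesothelial genes, and WT replicate 2 had the highest summed levels of fat, lymphocyte, neutrophil, and airway genes. The main gene lists that rest on either library are given below also without it. In bulk tissue, fewer cells of a type and less RNA per cell cannot be told apart.

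**Figure D2:**
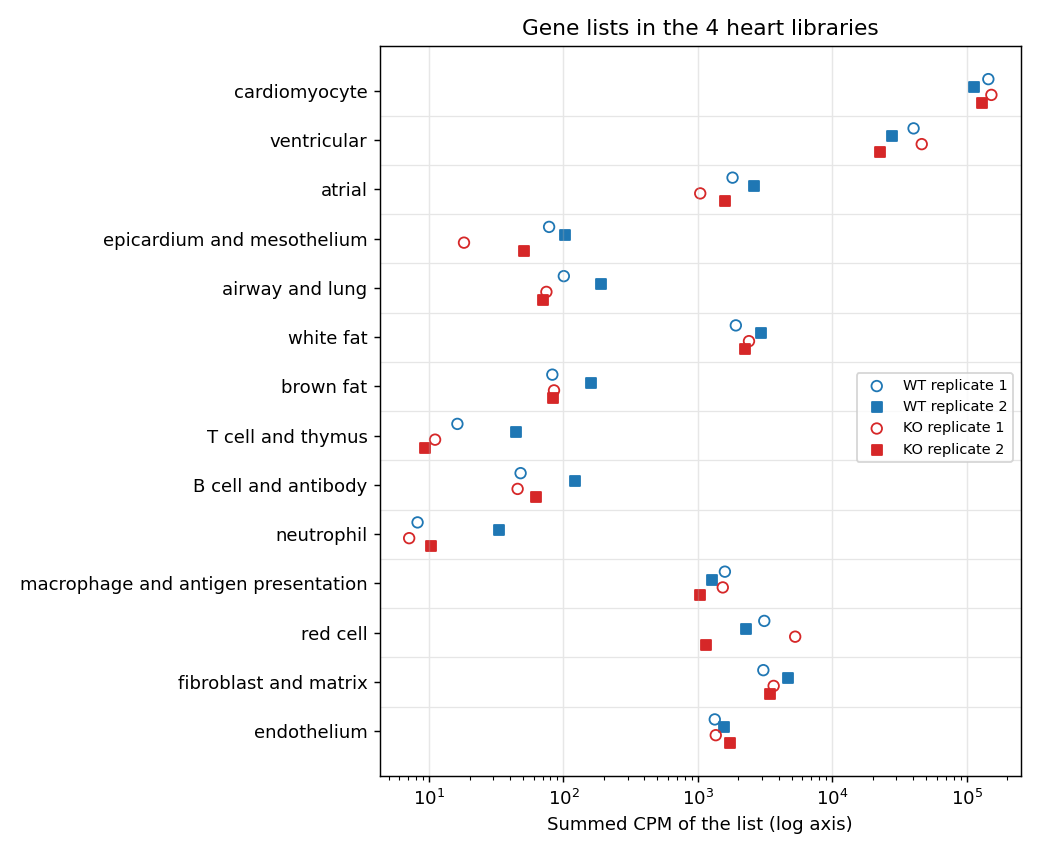
Summed CPM of 14 gene lists (log axis) in each heart library, blue for WT and red for KO, open circles for replicate 1 and filled squares for replicate 2. The cardiomyocyte list lies between 113717 and 152743 CPM in every library, whereas the epicardium and mesothelium list stands at 18.2 CPM in KO replicate 1 and the T cell and thymus list at 44.3 CPM in WT replicate 2.

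Genes of the working cardiomyocyte were present at high levels in every library and did not pass the test in either direction. The list of 63 genes summed to 144955 and 113717 CPM in WT and 152743 and 129031 CPM in KO, and all 63 were tested. Its median log2 fold change was 0.12, with medians of 0.09 in replicate 1 and 0.13 in replicate 2. In both pairs 21 of the 63 were higher in KO and 3 were lower, beside 19.2% and 22% of all genes. Both KO libraries were above both WT libraries in 10 of the 63 and below them in 0, beside 7.56% and 9.66% of all genes.
By role, 10 of the 26 genes of the sarcomere and Z-disc were higher in both pairs and 1 was lower. The values were 6 and 0 of 13 for calcium handling, 3 and 1 of 10 for ion channels, and 2 and 1 of 14 for transcription factors. Mb, the oxygen store of the muscle cell, had 23212 and 16818 CPM in WT and 25454 and 15608 CPM in KO. Tpm1, the tropomyosin of the thin filament, had 18166 and 11916 CPM in WT and 19134 and 13906 CPM in KO, and Tnni3, the inhibitory subunit of cardiac troponin, had 13207 and 7503 CPM in WT and 14333 and 7439 CPM in KO. Actc1, cardiac actin, had 12409 and 8154 CPM in WT and 11283 and 9142 CPM in KO. In these 4 genes the replicate 1 libraries were above the replicate 2 libraries in both genotypes, and the genotypes overlapped. Scaled to the summed counts of this list instead of by TMM, the median of all genes moved to -0.143 and that of the list to -0.025. That scaling holds the list near 0 by construction, so it cannot decide whether the small difference upward comes from the scaling. The list median was 0.137 with RLE size factors, 0.135 with DESeq2, and 0.084 to 0.19 with each library left out in turn.

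Of the ventricular genes, the abundant ones averaged close to WT with opposite directions in the 2 replicates, and the transcription factors Irx3 and Irx5 were higher in both KO libraries. The summed CPM of the list in KO was 1.15 times that in WT in replicate 1 and 0.82 times in replicate 2. Myl2, the ventricular regulatory light chain, had 28101 and 18909 CPM in WT and 32587 and 14315 CPM in KO, with a log2 fold change of -0.0033 (SE 0.56). Myl3, the ventricular essential light chain, had 7115 and 5422 CPM in WT and 8064 and 5095 CPM in KO, and Fhl2, a scaffold protein of the Z-disc, had 4789 and 3085 CPM in WT and 5473 and 2854 CPM in KO. Over the 8 members tested the median was 0.17, 3 were higher in both pairs, and 0 were lower. The transcription factor Irx3 had 5.33 and 8.71 CPM in WT and 11.5 and 13.9 CPM in KO and a log2 fold change of 0.85 (SE 0.36), and Irx5 had 2.52 and 2.88 CPM in WT and 5.09 and 5.05 CPM in KO and one of 0.90 (SE 0.38). For both, named after their values were seen, the KO libraries were above the WT libraries without overlap. That was the case for 2 of the 8 members tested and for 7.56% of all genes. Over the 4 transcription factors tested, the log2 fold change ran from 0.077 to 0.90. Irx3 and Irx5 take part in the transmural pattern of repolarization and in conduction. Myh7, the slow myosin heavy chain, went in opposite directions, with log2 ratios of -0.74 in replicate 1 and 0.92 in replicate 2, and overlaps other genes at its locus.

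Genes of the pacemaker and the conduction system were low. Hcn4, the main pacemaker channel, had 2.93 and 2.72 CPM in WT and 4.11 and 7.52 CPM in KO and a log2 fold change of 1.06 (SE 0.43), and it was the only one of the 7 members tested with KO libraries above WT libraries without overlap (7.56% of all genes). Cacna1g, a T-type calcium channel, had 14.3 and 11.8 CPM in WT and 7.66 and 19.5 CPM in KO, and Tbx3, a repressor of working muscle genes in the node, had 6.62 and 6.27 CPM in WT and 4.39 and 8.88 CPM in KO. Cntn2, a marker of the Purkinje system, had 2.81 and 2.07 CPM in WT and 1.67 and 4.61 CPM in KO. These 3 genes were lower in KO in replicate 1 and higher in replicate 2, and the list median was -0.59 in replicate 1 and 0.72 in replicate 2. Among the 9 tested genes of cardiac stress, 2 were higher in both pairs and 2 lower, with a median of 0.07. Ankrd1, a stretch-responsive protein of the sarcomere, had 1062 and 843 CPM in WT and 1134 and 896 CPM in KO, and Xirp2, a protein of the intercalated disc, had 1071 and 895 CPM in WT and 1001 and 1056 CPM in KO. Nppb, which encodes the ventricular natriuretic hormone BNP, had 327 and 375 CPM in WT and 579 and 139.5 CPM in KO, higher in KO in replicate 1 and lower in replicate 2.

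A group of atrial genes was lower in both KO libraries than in both WT libraries, and the most strongly affected were lowest in KO replicate 1. Over the 19 members tested of the 20 listed, the median log2 fold change was -0.55, 11 were lower in both pairs and 0 were higher, beside 22% and 19.2% of all genes. For 8 of them the KO libraries were below the WT libraries without overlap (9.66% of all genes), and 6 were more than 2-fold lower in both pairs (0.92% of all genes).
Nppa (ENSMUSG00000041616), which encodes the atrial hormone ANP, had 237 and 333 CPM in WT and 57.8 and 138 CPM in KO. The mean was 285 ± 68.1 CPM (SD, n = 2) in WT and 97.95 ± 56.7 in KO. KO over WT gave -1.54 (SE 0.45) on the log2 scale, with an unadjusted p of 0.0108. The adjusted p was 0.99998 in edgeR and 0.99993 in DESeq2, and RLE size factors, scaling to the cardiomyocyte list, and one fit of all 20 libraries did not call it either. It was past the threshold without the filter on low counts. A replicate block, in which the pairing by number enters the fit, also called it lower, with a log2 fold change of -1.65. The labels do not say that a number marks a shared litter or day. Both KO libraries were below both WT libraries, and leaving out KO replicate 1 gave a log2 fold change of -1.02 and leaving out KO replicate 2 one of -2.30.
Among the contractile proteins, Myl7, the atrial regulatory light chain, had 181 and 388 CPM in WT and 3.83 and 107 CPM in KO. Myl4 (ENSMUSG00000061086), the atrial essential light chain, had 264 and 452 CPM in WT and 11.1 and 190.4 CPM in KO, and Sln, the atrial inhibitor of the sarcoplasmic calcium pump, had 119 and 225 CPM in WT and 2.65 and 55.2 CPM in KO. KO replicate 1 was by far the lowest library, and KO replicate 2 was between KO replicate 1 and WT replicate 1. The log2 fold change was -2.36 (SE 1.21) for Myl7, -1.83 (SE 1.05) for Myl4, and -2.55 (SE 1.12) for Sln, so that the standard errors were large. Leaving out each library in turn gave -6.21 to -1.39 for Myl7 and -5.01 to -0.89 for Myl4. The lowest of these values came without KO replicate 2, where Sln was at -6.02. Mybphl, a myosin-binding protein of the atrium and conduction system, followed the same order with 17.1 and 40.8 CPM in WT and 0.766 and 15.9 CPM in KO, as did Fgf12, an intracellular regulator of sodium channels, with 11.1 and 20.4 CPM in WT and 0.557 and 6.26 CPM in KO.
Other listed genes of the atrium differed less or had another order. Pam, the enzyme that amidates peptide hormones and a main protein of the atrial granule membrane, had 731 and 779 CPM in WT and 719 and 729 CPM in KO and a log2 fold change of -0.06 (SE 0.30), so that its KO libraries lay just below its WT libraries. Kcnj3 and Kcnj5 encode the subunits of the acetylcholine-gated potassium channel. Kcnj3 had 85.9 and 113 CPM in WT and 94.2 and 108 CPM in KO, and Kcnj5 had 96.3 and 81.4 CPM in WT and 91.2 and 118 CPM in KO. Among transcription factors, Tbx5 had 8.03 and 18.03 CPM in WT and 7.39 and 20.9 CPM in KO and Nr2f2, a regulator of atrial identity, had 9.09 and 11.996 CPM in WT and 9.06 and 13.5 CPM in KO. The genotypes overlapped in Kcnj3, Kcnj5, Tbx5, and Nr2f2, and both factors were higher in replicate 2 than in replicate 1. Bmp10, a growth factor made by atrial muscle, was at 0 counts in both replicate 1 libraries and at 10.7 CPM in WT and 2.31 CPM in KO replicate 2. Summed over the list, Pam made up 42% of the CPM, and the sums were 1811 and 2619 CPM in WT and 1041 and 1580.4 CPM in KO. Without KO replicate 1 the list median was -0.60, -1.26 without KO replicate 2, and -0.13 without WT replicate 2.

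The 250 bases upstream of the start of these atrial genes are shown from RefSeq (GRCm38.p6), since the genes moved together across the 4 libraries. Capitals mark matches on either strand to GATAA, the core bound by Gata4 and its relatives, to AAGTG, that of Nkx2-5, and to GGTGTG, that of T-box factors. The MEF2 core was also searched and did not occur in them. Matches did not overlap one another. Nppa lies at chr4:148000472-148000721 (plus strand), Myl7 at chr11:5898783-5899032 (minus strand), Myl4 at chr11:104550413-104550662 (plus strand), and Mybphl at chr3:108364661-108364910 (plus strand).
Nppa upstream: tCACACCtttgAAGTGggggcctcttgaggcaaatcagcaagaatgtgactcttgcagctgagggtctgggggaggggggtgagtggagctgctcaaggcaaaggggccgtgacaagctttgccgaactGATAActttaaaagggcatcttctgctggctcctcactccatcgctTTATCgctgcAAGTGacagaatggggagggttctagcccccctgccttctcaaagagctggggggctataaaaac
Myl7 upstream: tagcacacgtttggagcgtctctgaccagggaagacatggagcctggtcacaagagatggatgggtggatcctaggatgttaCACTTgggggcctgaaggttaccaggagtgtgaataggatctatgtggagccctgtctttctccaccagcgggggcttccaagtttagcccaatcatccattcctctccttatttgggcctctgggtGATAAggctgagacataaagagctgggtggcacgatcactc
Myl4 upstream: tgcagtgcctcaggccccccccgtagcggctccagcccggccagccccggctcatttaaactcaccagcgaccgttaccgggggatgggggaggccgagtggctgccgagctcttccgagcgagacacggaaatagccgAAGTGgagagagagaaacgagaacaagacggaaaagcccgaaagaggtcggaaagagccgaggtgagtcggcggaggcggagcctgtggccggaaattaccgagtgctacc
Mybphl upstream: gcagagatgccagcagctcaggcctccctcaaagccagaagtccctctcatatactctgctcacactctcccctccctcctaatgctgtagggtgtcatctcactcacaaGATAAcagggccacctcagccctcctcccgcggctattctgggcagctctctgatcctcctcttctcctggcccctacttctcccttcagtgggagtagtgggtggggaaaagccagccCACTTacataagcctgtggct
Nppa held 2 matches to GATAA, 2 to AAGTG, and 1 to GGTGTG. Myl7 and Mybphl each held 1 to GATAA and 1 to AAGTG, and Myl4 held 1 to AAGTG only. Of 32851 upstream regions of this length in the table, 22.6% held GATAA, 40.7% AAGTG, 16.3% GGTGTG, and 3.2% the MEF2 core, so that short matches of this kind are common. Fgf12 was searched as well and held none of the 4 motifs. Sln was not matched.

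**Figure D3:**
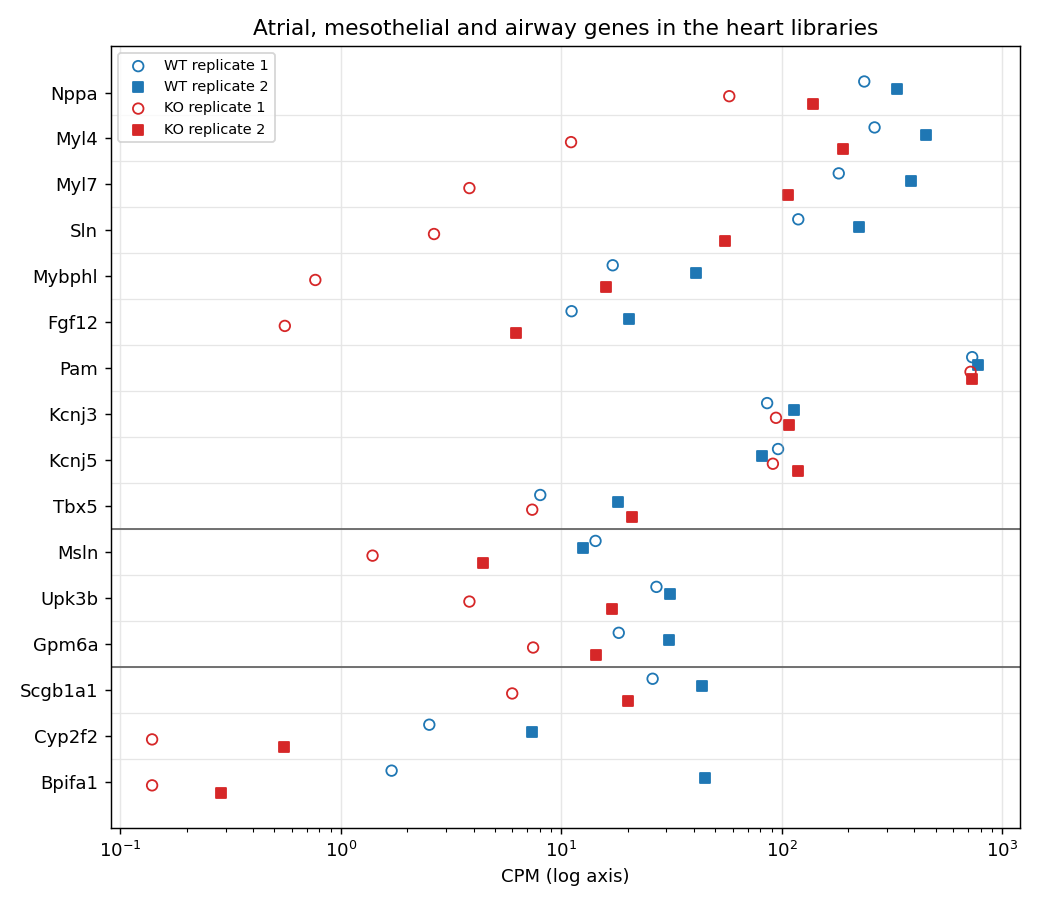
CPM (log axis) of 10 atrial, 3 mesothelial, and 3 airway genes in each heart library, blue for WT and red for KO, open circles for replicate 1 and filled squares for replicate 2. Myl7 falls from 181 and 388 CPM in WT to 3.83 CPM in KO replicate 1 and 107 CPM in KO replicate 2, while Kcnj3 and Tbx5 overlap between the genotypes.

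Genes of the epicardium and its mesothelium, the thin surface layer of the heart and of the pericardial cavity, were lower in KO in both pairs for 8 of 8 members tested (22% of all genes). Their median log2 fold change was -1.44, with medians of -2.04 in replicate 1 and -1.13 in replicate 2, and 5 of the 8 were more than 2-fold lower in both pairs (0.92% of all genes). The sums were 78.1 and 101.96 CPM in WT and 18.2 and 51.02 CPM in KO. Msln, a surface glycoprotein of mesothelium, had 14.3 and 12.51 CPM in WT and 1.39 and 4.41 CPM in KO and a log2 fold change of -2.15 (SE 0.53). Upk3b, a membrane protein of mesothelium, had 27.03 and 31.1 CPM in WT and 3.83 and 16.9 CPM in KO, and Gpm6a, a membrane glycoprotein of mesothelium and neurons, had 18.2 and 30.9 CPM in WT and 7.46 and 14.4 CPM in KO. In all 3 the KO libraries were below the WT libraries and KO replicate 1 was the lowest.
Lower members followed the same order. Upk1b had 3.69 and 5.31 CPM in WT and 0.975 and 2.05 CPM in KO. Krt7, a keratin of simple epithelia, had 2.52 and 3.58 CPM in WT and 0.139 and 0.926 CPM in KO. Muc16, a mucin of mesothelium, had 4.81 and 8.96 CPM in WT and 0.975 and 3.94 CPM in KO. Wt1, the transcription factor of the epicardium, differed less, with 4.87 and 5.03 CPM in WT and 2.72 and 4.56 CPM in KO and a log2 fold change of -0.42 (SE 0.41). Without KO replicate 1 the list median was -0.77, and without KO replicate 2 it was -2.60. No member was at 0 counts in any library.
In Nppa, Myl7, Myl4, Sln, Mybphl, and Fgf12 of the atrial list, as in the mesothelial genes named above, KO replicate 1 was the lowest library and KO replicate 2 the next. The part that the share of atrium, appendage, or surface tissue in each dissected piece had in these differences was not tested.

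Airway genes were counted at low levels in the WT libraries, and those of secretory cells were lower in KO, whereas other members of the list went in both directions. Of the 38 genes listed for airway and lung, 16 were tested, and 11 of these were lower in both pairs and 1 was higher, beside 22% and 19.2% of all genes. In 9 of the 16 the KO libraries were below the WT libraries without overlap (9.66% of all genes). Members at 0 counts numbered 7 and 1 in WT replicates 1 and 2 and 12 and 8 in the KO libraries, and a member that passed the filter through a high WT library had to differ, so that these counts do not describe all members. The median log2 fold change of those tested was -1.32, with medians of -1.70 in replicate 1 and -1.12 in replicate 2. It was -0.97 without WT replicate 2 and -0.80 without KO replicate 1.
Of the 10 listed genes of airway secretory cells 6 were tested, and these were lower in both pairs (22% of all genes). Scgb1a1, the main secretory protein of club cells, had 25.97 and 43.6 CPM in WT and 5.99 and 20.01 CPM in KO and a log2 fold change of -1.40 (SE 0.56). Cyp2f2, a cytochrome P450 of club cells, had 2.52 and 7.36 CPM in WT and 0.139 and 0.551 CPM in KO from 43, 284, 2, and 25 counts, and a log2 fold change of -3.66 (SE 0.79) with an unadjusted p of 0.00246. Scgb3a2, a secretoglobin of club cells, had 1.41 and 6.92 CPM in WT and 0.279 and 0.264 CPM in KO. These 3 are among the 9 without overlap, and the replicate block called all 3 lower.
Bpifa1, an antimicrobial protein of the upper airways, had 1.70 and 45.01 CPM in WT and 0.139 and 0.287 CPM in KO, and Bpifb1, of the same family, had 0.821 and 2.38 CPM in WT and 0.209 and 0.110 CPM in KO. In Bpifa1, which the replicate block also called lower, WT replicate 2 alone stood high. Keratins of simple epithelium, which mesothelium also expresses, were lower as well, with 1.47 and 3.52 CPM in WT and 0.557 and 1.06 CPM in KO for Krt8. Krt19 had 5.75 and 5.80 CPM in WT and 0.697 and 2.62 CPM in KO.
Of the 5 alveolar genes tested, 2 were lower in both pairs. Sftpc, a surfactant protein of the alveolus, had 7.62 and 6.53 CPM in WT and 1.53 and 6.08 CPM in KO, so that KO replicate 2 was near WT. Tppp3, which made up 41.2% of the list by CPM and is expressed outside ciliated cells, had 42.3 and 48.01 CPM in WT and 58.1 and 31.1 CPM in KO. Foxj1, the defining factor of ciliated cells, was at 0.117 and 0.337 CPM in WT and at 0.0697 and 0 in KO, and Cldn4 was at 0 counts in all 4 libraries. The part that adhering airway tissue had in these values was not tested.

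White fat genes differed between replicate numbers in both genotypes, and between the genotypes mainly in replicate 2. The median log2 ratio over the 28 members tested was 0.01 in replicate 1 and -1.03 in replicate 2, and 2 were higher and 8 lower in both pairs. From replicate 1 to replicate 2 the median log2 difference was 2.98 in WT and 1.44 in KO. Adipoq, the hormone adiponectin, had 0.528 and 42.8 CPM in WT and 1.46 and 11.7 CPM in KO, and Cfd, the serine protease adipsin, had 0.703 and 118 CPM in WT and 3.21 and 43.9 CPM in KO. Scd1, the stearoyl-CoA desaturase, had 16.5 and 465 CPM in WT and 15.5 and 116 CPM in KO, and Car3, a carbonic anhydrase of fat and muscle, had 1.64 and 183 CPM in WT and 1.88 and 58.2 CPM in KO. In each, WT replicate 2 was highest, KO replicate 2 was next, and both replicate 1 libraries were low.
Listed genes that heart muscle and its vessels also express did not follow this order. Fabp4, a lipid carrier of fat and of cardiac endothelium, made up 58.4% of the summed CPM and had 1385 and 1139.7 CPM in WT and 1881 and 1141 CPM in KO. Plin4, a lipid droplet protein, had 160.0 and 323 CPM in WT and 155 and 373 CPM in KO, and Dgat2, an enzyme of triglyceride synthesis, had 204 and 198 CPM in WT and 184 and 231 CPM in KO. Without WT replicate 2 the list median was 0.99, and with all libraries it was -0.90, so that the sign rests on that library.
Brown fat was seen mainly through Ucp1, its uncoupling protein, which had 0.117 and 61.5 CPM in WT and 0 and 5.27 CPM in KO. The replicate block called Ucp1 lower. Cidea, a lipid droplet protein of brown fat, had 52.1 and 59.8 CPM in WT and 60.6 and 30.2 CPM in KO. Prdm16, a factor of brown fat identity, had 12.49 and 14.1 CPM in WT and 9.82 and 18.8 CPM in KO. Ppargc1b, a coactivator of mitochondrial genes, had 7.97 and 10.3 CPM in WT and 6.83 and 18.4 CPM in KO. Slc27a2, a fatty acid transporter, had 0.586 and 2.88 CPM in WT and 0 and 0.220 CPM in KO. WT replicate 2 was highest in Ucp1 and Slc27a2, and the genotypes overlapped in all of these genes except Slc27a2. The median over the 7 tested genes was -0.30 with all libraries and 0.19 when WT replicate 2 was left out.

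Most lymphocyte genes were highest in WT replicate 2, which held the maximum for 11 of 13 tested T cell genes and 16 of 18 tested B cell genes. Of the 22 listed genes of T cells and thymus, 13 were tested, with a median log2 fold change of -2.15 and medians of -0.52 in replicate 1 and -2.47 in replicate 2. Without WT replicate 2 only 10 passed the filter on low counts, and a member that passed it through that library had to be lower in KO, so that these medians and counts do not describe all members. In both pairs 9 were lower and 0 were higher, beside 22% and 19.2% of all genes. Members at 0 counts numbered 5 and 0 in WT replicates 1 and 2 and 6 and 1 in the KO libraries. Cd3g, a chain of the T cell receptor complex, had 0.703 and 2.69 CPM in WT and 0.139 and 0.198 CPM in KO, and Trbc2, a constant region of the receptor whose reads may be shared with the near-identical Trbc1, had 0.938 and 3.21 CPM in WT and 0.139 and 0.441 CPM in KO. Lat, an adaptor of receptor signalling, had 0.586 and 1.89 CPM in WT and 0.209 and 0.331 CPM in KO, and Cd3d had 0.703 and 1.14 CPM in WT and 0 and 0.132 CPM in KO.
These 4 were named for a p under 0.05 and a difference over 2-fold in both pairs. Over the list, 8 of the 13 tested had both KO libraries below both WT libraries, beside 9.66% of all genes. The kinase Lck had 0.410 and 3.58 CPM in WT and 0.139 and 0.617 CPM in KO, and the zeta chain Cd247 had 2.23 and 1.61 CPM in WT and 1.53 and 0.815 CPM in KO. Cd1d1, a lipid-presenting molecule that many cells express, had 5.98 and 7.44 CPM in WT and 4.39 and 3.59 CPM in KO, and Arpp21, of immature thymocytes and neurons, had 1.17 and 2.23 CPM in WT and 1.05 and 0.617 CPM in KO. The recombinase Rag1, which only immature lymphocytes express, was at 0 counts in both replicate 1 libraries, at 3.60 CPM in WT replicate 2, and at 0.0882 CPM in KO replicate 2. Without WT replicate 2 the list median was -0.77.
B cell genes differed mainly in replicate 2, with medians of -0.05 in replicate 1 and -2.05 in replicate 2 over the 18 members tested, of which 11 were lower and 1 was higher in both pairs. Only 12 passed the filter without WT replicate 2, so that the same limit holds. Ms4a1, the surface protein CD20, had 0.234 and 9.38 CPM in WT and 0.557 and 0.793 CPM in KO, and Pax5, the B cell identity factor, had 0.469 and 2.12 CPM in WT and 0.139 and 0.242 CPM in KO. Among antibody genes, Ighm had 16.8 and 21.4 CPM in WT and 14.8 and 18.5 CPM in KO and Igkc had 2.64 and 16.997 CPM in WT and 2.72 and 9.04 CPM in KO. Ebf1, a factor that fat and vessel cells also express, had 12.2 and 16.4 CPM in WT and 13.03 and 18.5 CPM in KO, and the kinase Blk had 6.74 and 4.12 CPM in WT and 4.88 and 3.94 CPM in KO. Without WT replicate 2 the list median was 0.32 instead of -1.30. Glycam1, a mucin of the venules of lymph nodes, was counted in WT replicate 2 alone, at 39.2 CPM, and DESeq2 called it lower in KO.
Of the 12 listed neutrophil genes 5 were tested, and WT replicate 2 was highest in 4 of them. Their median was -1.62, and without WT replicate 2, where 4 passed the filter, it was -0.19, so that the limit given for T cell genes holds here too. S100a9, an alarmin of neutrophils, had 1.64 and 6.89 CPM in WT and 1.81 and 0.860 CPM in KO, and S100a8, its partner, had 0.938 and 4.61 CPM in WT and 0.557 and 1.17 CPM in KO. The granule gene Ltf was at 0 counts in both replicate 1 libraries and at 7.28 and 0.132 CPM in WT and KO replicate 2. Mmp9 had 0.703 and 1.94 CPM in WT and 0.836 and 0.353 CPM in KO and Lcn2, which other tissues also express, had 4.10 and 4.46 CPM in WT and 3.76 and 6.74 CPM in KO.

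Of the genes of macrophages and antigen presentation, all 25 listed were tested, 2 were higher in both pairs and 8 lower, and the median was -0.06. The 18 macrophage genes had a median of 0.015, with 2 higher and 2 lower in both pairs, and the 7 genes of MHC class II had one of -0.55, with 0 higher and 6 lower, beside 19.2% and 22% of all genes. The KO libraries were below the WT libraries without overlap in 2 of the 25 (9.66% of all genes). None of the 25 had an unadjusted p under 0.05. Lyz2, the lysozyme of macrophages, had 501 and 353 CPM in WT and 524 and 273 CPM in KO. F13a1, a clotting factor of resident macrophages, had 84.6 and 136 CPM in WT and 104 and 112 CPM in KO. C1qb, a complement subunit, had 91.6 and 78.6 CPM in WT and 102.29 and 63.1 CPM in KO. H2-Aa, an MHC class II chain, had 233 and 84.3 CPM in WT and 127 and 56.99 CPM in KO. The genotypes overlapped in these 4 genes.
Red cell genes moved in opposite directions in the pairs, with medians of 0.72 in replicate 1 and -1.03 in replicate 2. Hbb-bs, an adult beta globin, had 1862 and 1254 CPM in WT and 3378 and 649 CPM in KO. Hba-a1, an alpha globin, had 695 and 545 CPM in WT and 1032 and 204 CPM in KO. Hbb-bt had 292 and 200.4 CPM in WT and 523 and 70.9 CPM in KO. Globin paralogs can share reads. Fech, the last enzyme of heme synthesis and present in muscle, had 145 and 156 CPM in WT and 156 and 154 CPM in KO. Slc4a1, the anion exchanger of the red cell membrane, had 0.586 and 2.51 CPM in WT and 0.279 and 0.242 CPM in KO, the only member lower in both pairs. Globins were thus highest in KO replicate 1 and lowest in KO replicate 2, the KO libraries being farther apart than the WT libraries.
Of mast cell genes, chosen after their values were seen, Mcpt4 had 1.76 and 4.51 CPM in WT and 0.836 and 0.749 CPM in KO. Mrgprb1 had 0.821 and 0.466 CPM in WT and 0.0697 and 0.0441 CPM in KO. Kit had 5.16 and 3.47 CPM in WT and 1.95 and 2.51 CPM in KO. Tpsb2 had 3.17 and 3.08 CPM in WT and 2.16 and 1.19 CPM in KO. Fcer1a, which did not pass the filter on low counts, had 0.234 and 0.725 CPM in WT and 0 and 0.0441 CPM in KO. In all of these the KO libraries were below the WT libraries, which is a description only of genes picked with their values known. Cpa3 with 1.52 and 3.94 CPM in WT and 3.76 and 1.04 CPM in KO overlapped between the genotypes. So did Cma1, with 1.82 and 3.03 CPM in WT and 2.93 and 0.882 CPM in KO.

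Endothelial genes were close to WT. The endothelial list of 16 genes had a median of 0.03, with 7 higher and 2 lower in both pairs. Pecam1, an adhesion molecule of endothelium, had 209 and 224 CPM in WT and 228 and 251 CPM in KO. Aqp1, a water channel, had 327 and 454 CPM in WT and 344 and 558 CPM in KO. Emcn, a mucin of capillaries and veins, had 134 and 72.6 CPM in WT and 141 and 73.9 CPM in KO. Egfl7, a secreted factor of endothelium whose locus holds other genes, had 132 and 61.1 CPM in WT and 93.9 and 80.9 CPM in KO. Pecam1 was higher in both KO libraries than in both WT libraries, and the other 3 overlapped.
Fibroblast genes had medians of 0.38 in replicate 1 and -0.37 in replicate 2 over 18 members. Dcn, a proteoglycan of the matrix, had 1211 and 1456 CPM in WT and 1188 and 1069 CPM in KO. Gsn, an actin-severing protein, had 852 and 1629 CPM in WT and 1125 and 1252 CPM in KO. Col3a1, a fibrillar collagen, had 142 and 374 CPM in WT and 247 and 199 CPM in KO. Lum, a matrix proteoglycan, had 205 and 300.4 CPM in WT and 241 and 158 CPM in KO. WT replicate 2 was highest in each.
In the list of smooth muscle and vessel wall, 2 of 9 members were higher and 3 lower in both pairs. Acta2, smooth muscle actin, had 181 and 153 CPM in WT and 218 and 187 CPM in KO. Synpo2 had 105 and 104 CPM in WT and 133 and 108 CPM in KO. Smtn had 165 and 188 CPM in WT and 92.9 and 218 CPM in KO. Eln, elastin, had 31.4 and 62.9 CPM in WT and 31.5 and 45.7 CPM in KO. For Acta2 and Synpo2 the KO libraries were above the WT libraries without overlap (7.56% of all genes), and Smtn and Eln overlapped.
Only 4 of 11 genes of nerve and ganglion were tested, with a median of -0.54, and 3 were lower and 0 higher in both pairs. The median was 0.064, over 3 genes, without WT replicate 1 and -0.076 without KO replicate 2. Dbh, which makes noradrenaline, had 8.91 and 4.97 CPM in WT and 6.83 and 3.48 CPM in KO. Sox10 had 1.82 and 0.700 CPM in WT and 1.11 and 0.529 CPM in KO. Snap25 had 0.938 and 0.0518 CPM in WT and 0.557 and 0.0441 CPM in KO. The neuronal genes Chga and Npy were at 0 counts in all 4 libraries.
Skeletal muscle genes that the heart lacks were near 0, since Myh1, Myh2, Myh4, and Tnnc2 had at most 0.155 CPM. Myl1 had 82.1 and 85.5 CPM in WT and 103 and 69.3 CPM in KO. Casq1 had 14.4 and 6.996 CPM in WT and 17.98 and 13.99 CPM in KO. Tnni2 had 4.34 and 2.44 CPM in WT and 5.09 and 3.75 CPM in KO. Mylpf had 1.70 and 1.92 CPM in WT and 2.37 and 1.15 CPM in KO. None of these genes of other cell types had an unadjusted p under 0.05.

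Genes of fatty acid oxidation, the main fuel pathway of the heart, had a median of 0.02 over 34 members, with 6 higher and 5 lower in both pairs. Fabp3, the cardiac fatty acid carrier, had 9878 and 5361 CPM in WT and 11848 and 4224 CPM in KO. Lpl, which frees fatty acids from lipoproteins, had 6451 and 5817 CPM in WT and 7328 and 7221 CPM in KO. Cd36, a fatty acid translocase, had 3269 and 4014 CPM in WT and 3758 and 3314 CPM in KO. Hadhb, a subunit of the trifunctional protein, had 2708 and 2458 CPM in WT and 2965 and 1830.1 CPM in KO. The genotypes overlapped in Fabp3, Cd36, and Hadhb, and in Lpl the KO libraries were above the WT libraries.
The regulators of fuel choice were the least even. Pdk4, the kinase that shuts off pyruvate oxidation, had 440.2 and 1378 CPM in WT and 787 and 207 CPM in KO, log2 ratios of 0.84 in replicate 1 and -2.74 in replicate 2. Angptl4, an inhibitor of lipoprotein lipase that fatty acids induce, had 12.3 and 20.9 CPM in WT and 46.4 and 3.04 CPM in KO, log2 ratios of 1.91 in replicate 1 and -2.75 in replicate 2. Both were higher in KO in replicate 1 and lower in KO in replicate 2.
Of the nuclear-encoded subunits of oxidative phosphorylation, 45 were tested, with a median of 0.04. In both pairs 16 were higher and 1 was lower, beside 19.2% and 22% of all genes. The medians were 0.16 in replicate 1 and -0.16 in replicate 2, and leaving out each library in turn gave medians of -0.47 to 0.39. Atp5b had 5589 and 5552 CPM in WT and 6331 and 5597 CPM in KO. Atp5a1 had 4867 and 4541 CPM in WT and 5523 and 4923 CPM in KO. Atp5c1 had 3076 and 2296 CPM in WT and 3267 and 1935 CPM in KO, all of ATP synthase, and Cox6a2, the muscle subunit of cytochrome oxidase, had 4806 and 2409.7 CPM in WT and 5617 and 2570.0 CPM in KO. All 37 genes of the mitochondrial genome in the table held 0 counts in the heart libraries, so that its transcripts were not measured.

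Early response genes differed between the genotypes mainly in replicate 2. Over 23 immediate early genes the medians were 0.15 in replicate 1 and -0.67 in replicate 2, 9 were lower in both pairs, and 0 were higher, beside 22% and 19.2% of all genes. For 6 of the 23 the KO libraries were below the WT libraries without overlap (9.66% of all genes). Fos, a subunit of the AP-1 factor, had 8.21 and 25.6 CPM in WT and 4.95 and 6.08 CPM in KO, with a log2 fold change of -1.62 (SE 0.54). Its edgeR adjusted p was 0.99998, and it was past the threshold without the filter on low counts and without WT replicate 1. Egr1, a zinc finger factor, had 16.7 and 26.3 CPM in WT and 14.3 and 9.32 CPM in KO, and Nr4a1, an orphan nuclear receptor, had 12.1 and 22.7 CPM in WT and 9.34 and 8.62 CPM in KO. These 3, named after their values were seen, are among the 6 without overlap, and WT replicate 2 was highest in each.
The more abundant members overlapped between the genotypes. Klf6 had 53.3 and 94.2 CPM in WT and 65.4 and 83.2 CPM in KO. Dusp1, a phosphatase of MAP kinases, had 73.98 and 57.6 CPM in WT and 68.8 and 48.9 CPM in KO. Jun had 19.3 and 65.9 CPM in WT and 29.96 and 42.2 CPM in KO. Btg2 had 24.8 and 56.1 CPM in WT and 35.7 and 29.05 CPM in KO. Without WT replicate 2 the list median was 0.14 instead of -0.33.
Targets of the glucocorticoid receptor followed the replicate number. Zbtb16, a zinc finger factor that glucocorticoids induce, had 12.3 and 225 CPM in WT and 19.3 and 225 CPM in KO. Fkbp5, a chaperone of the receptor, had 8.15 and 50.6 CPM in WT and 10.3 and 70.1 CPM in KO, and Klf9 had 131 and 213 CPM in WT and 131 and 219 CPM in KO. For these 3 genes both replicate 2 libraries were above both replicate 1 libraries.
Tsc22d3, an anti-inflammatory leucine zipper protein, had the same order with 63.2 and 171 CPM in WT and 75.9 and 133 CPM in KO, whereas Mt1, a metallothionein, had 364 and 170.2 CPM in WT and 406 and 305 CPM in KO. From replicate 1 to replicate 2 the median log2 difference over the list was 0.998 in WT and 1.03 in KO. Between the genotypes 6 of 13 members were higher in both pairs and 0 were lower, with a median of 0.31. The median was -0.10 without WT replicate 1 and -0.61 without KO replicate 2.
Clock genes set WT replicate 2 apart. Dbp, an output factor of the clock, had 83.8 and 15.99 CPM in WT and 65.8 and 74.6 CPM in KO, and Arntl, the activator BMAL1 whose peak is opposite to that of Dbp, had 4.51 and 20.1 CPM in WT and 7.73 and 5.69 CPM in KO. Ciart, a repressor of the clock, had 15.2 and 4.04 CPM in WT and 9.13 and 19.7 CPM in KO, and Per3 had 67.9 and 21.6 CPM in WT and 38.9 and 79.03 CPM in KO. WT replicate 2 was low in Dbp, Ciart, and Per3 and high in Arntl, beyond the other 3 libraries in each case.
Among the abundant members, Nr1d2 had 264 and 206 CPM in WT and 225 and 256 CPM in KO. Tef had 204 and 129.99 CPM in WT and 162 and 332 CPM in KO. Clock had 83.4 and 126 CPM in WT and 92.2 and 93.8 CPM in KO. The list medians were -0.23 in replicate 1 and 0.39 in replicate 2, and 1 of 18 members was higher in both pairs and 3 were lower. Hour of death is not given in the sources used here.
Interferon-stimulated genes had a median of 0.16 over 19 members, with 7 higher and 2 lower in both pairs and none at an unadjusted p under 0.05. Ifi27l2a had 65.4 and 48.3 CPM in WT and 138 and 57.3 CPM in KO. Rsad2, viperin, had 40.7 and 24.3 CPM in WT and 33.3 and 42.8 CPM in KO, and the guanylate-binding protein Gbp2 had 51.8 and 29.3 CPM in WT and 36.8 and 35.6 CPM in KO. Gbp3, of the same family, had 57.2 and 25.2 CPM in WT and 36.8 and 32.8 CPM in KO. Both KO libraries were above both WT libraries in 4 of the 19, beside 7.56% of all genes.

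**Figure D4:**
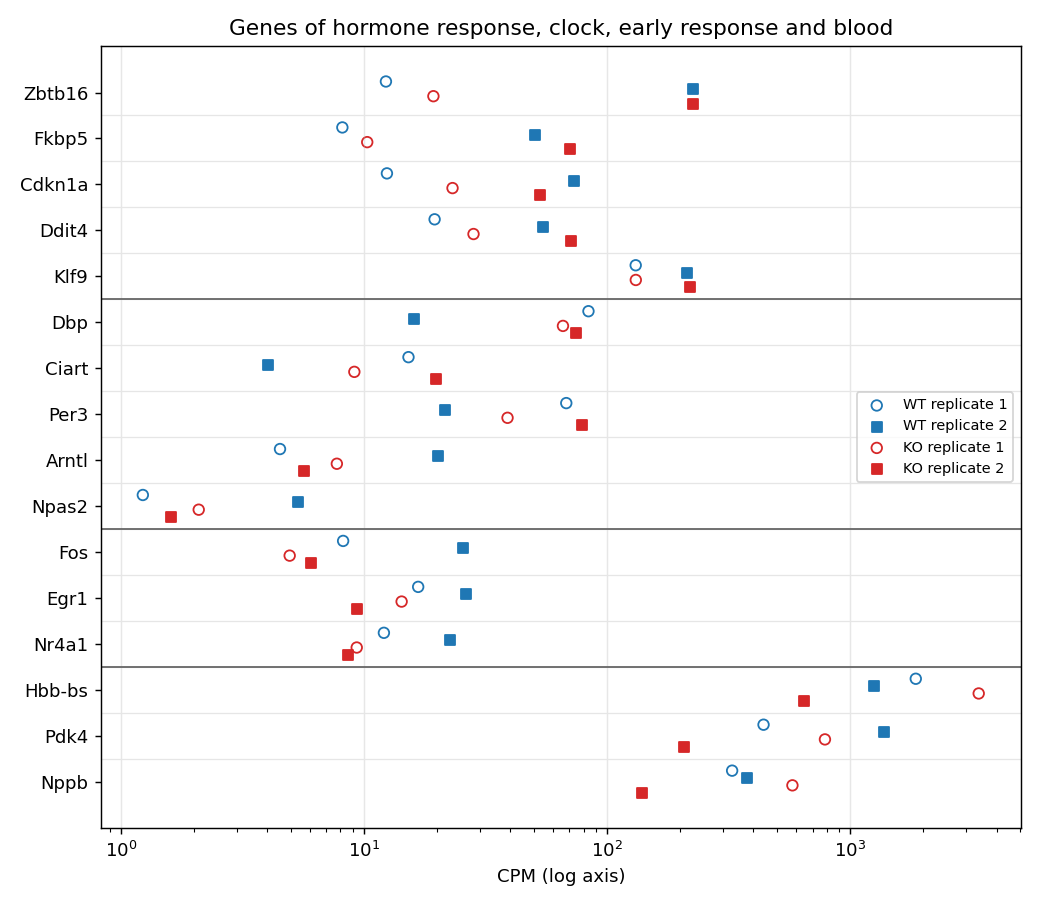
CPM (log axis) of 5 glucocorticoid-responsive genes, 5 clock genes, 3 early response genes, and Hbb-bs, Pdk4, and Nppb in each heart library, blue for WT and red for KO, open circles for replicate 1 and filled squares for replicate 2. Zbtb16 separates the replicate numbers (12.3 and 19.3 against 225 and 225 CPM), Dbp and Arntl separate WT replicate 2 from the other libraries, and Hbb-bs, Pdk4, and Nppb lie in opposite orders in the pairs.

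Among the genes that write, read, or remove m5C in RNA, 3 of 13 tested were higher in both pairs and 5 were lower, Nsun6 included, with a median of 0.02. Nsun2, which methylates transfer RNA and mRNA, had 60.4 and 51.6 CPM in WT and 69.5 and 52.4 CPM in KO, and Nsun4, a mitochondrial enzyme, had 41.7 and 39.6 CPM in WT and 47.7 and 44.8 CPM in KO. Ybx1, a binding protein of methylated mRNA, had 1133 and 833 CPM in WT and 1060.3 and 796 CPM in KO, and Tet2, an oxidase of 5-methylcytosine, had 40.9 and 47.9 CPM in WT and 34.6 and 54.97 CPM in KO. Nsun4 was higher in both KO libraries than in both WT libraries, and none of the 13 had an unadjusted p under 0.05.

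Genes that carry an Nsun6-dependent m5C site in the heart were taken from the list of sites of the study, of which only the positions are used. Its 39 heart sites fall in 39 genes, and 37 of these were tested. Read from the GENCODE transcripts in GRCm38, all 39 sites are a C, 17 begin the letters CTCCA, 24 lie in coding sequence, 9 in the 3′ UTR, 3 in the 5′ UTR, and 3 in transcripts without coding sequence. The sites of Selenok, Selenok-ps5, and Selenok-ps8, all among those with CTCCA, have the same sequence around them. They may therefore not be separate sites. Windows of 21 bases are shown for the target with the lowest and the one with the highest fold change, and for a muscle and a metabolic gene among those with CTCCA. Capitals mark the 5 bases from the site on. The sites are position 104585765 of chromosome 11 for Myl4 (plus strand, 3′ UTR), 72353951 of chromosome 5 for Corin (minus strand), 71036418 of chromosome 17 for Myom1 (plus strand), and 4928741 of chromosome 2 for Phyh (plus strand), the last 3 in coding sequence.
Myl4: aagcacgtttCTCCAgggtgc
Corin: agaaggagaaCAGGGatgcct
Myom1: agtccgcaacCTCCAaacgga
Phyh: atcaacaagcCTCCAgatgtt
Corin, the protease that activates ANP, had 187 and 192 CPM in WT and 237 and 292 CPM in KO and a log2 fold change of 0.48 (SE 0.27). Its KO libraries were above its WT libraries, while Myl4, whose values are given above, was lowest in KO replicate 1. Myom1, a protein of the M-band, had 1424 and 1513 CPM in WT and 1563 and 2041 CPM in KO, and Phyh, a peroxisomal enzyme of branched fatty acids, had 799 and 655 CPM in WT and 809.9 and 626 CPM in KO, the first with its KO libraries above its WT libraries and the second with overlapping genotypes. Over the 37 targets the median log2 fold change was 0.0071, 10 were higher in both pairs and 6 lower, beside 19.2% and 22% of all genes, and 0 had an unadjusted p under 0.05. Myl4, which is also an atrial gene, was the only target over 2-fold in both pairs.

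Of the 153 genes more than 2-fold lower in KO in both pairs, 61 had an unadjusted p under 0.05. Most were low, with a median of 0.664 CPM over the 4 libraries beside 12.1 CPM for all genes tested, and 11 had a mean over 10 CPM. These 11 were Nppa, Sln, Myl7, Myl4, and Mybphl of the atrial list, Gpm6a of the mesothelial list, Scgb1a1 and Bpifa1 of the airway list, Ucp1 of the brown fat list, and Sbk3 and Pkhd1l1 of none. Sbk3, a kinase of heart muscle, had 13.2 and 25.2 CPM in WT and 1.18 and 12.1 CPM in KO, an order like that of Myl7, and Pkhd1l1, a large membrane protein, had 17.9 and 34.4 CPM in WT and 8.78 and 16.9 CPM in KO. No gene of the cardiomyocyte list was among the 153.
The 10 lower genes with the smallest p were Cyp2f2, Sult1d1, Scgb3a2, Bpifa1, Msln, Zfp973, Bpifb1, Ccdc187, Gm14546, and Cd3g. Sult1d1, a sulfotransferase, had 10 and 58 counts in WT against 0 and 0 in KO. Ccdc187 had 10 and 19 counts in WT against 0 and 0 in KO, and Gm14546 had 9 and 18 counts in WT against 0 and 0 in KO. All 3 were at 0 in both KO libraries. Zfp973, whose exons overlap another gene, had 0.938 and 3.58 CPM in WT and 0.279 and 0.176 CPM in KO.
Of the 59 genes more than 2-fold higher in both pairs, 17 had an unadjusted p under 0.05 and 0 had a mean over 10 CPM, the median being 0.504 CPM. The 10 with the smallest p were Gm4779, Gm6361, Serpina12, Olfr559, Gm12100, Gm13690, Gm13707, Mybpc1, Ccl3, and Zfp965. Gm4779 had 0 and 0 counts in WT against 10 and 43 in KO, and Gm6361 had 0 and 0 counts in WT against 11 and 16 in KO. Serpina12, the adipokine vaspin, had 1 and 3 counts in WT against 8 and 39 in KO. Olfr559, an olfactory receptor gene, had 1 and 2 counts in WT against 10 and 20 in KO, and the gene models Gm12100, Gm13690, and Gm13707 had at most 1.65 CPM.
Mybpc1, slow skeletal myosin-binding protein C, had 0 and 4 counts in WT against 8 and 31 in KO. Ccl3, a chemokine of macrophages, had 3 and 5 counts in WT against 10 and 39 in KO, and Zfp965 had 4 and 10 counts in WT against 8 and 76 in KO. Among the 59, the highest means were those of Siglec1, a sialic acid receptor of resident macrophages, with 1.88 and 4.28 CPM in WT and 3.97 and 10.9 CPM in KO, and of Rgs18, a regulator of platelet signalling, with 1.17 and 2.28 CPM in WT and 2.86 and 6.99 CPM in KO.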

How the data were processed

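Poly(A) RNA of snap-frozen tissue was sequenced as paired ends from a stranded kit. Per the methods and the submitters' processing notes, the authors trimmed reads with cutadapt, aligned them with HISAT2 2.1.0 to mm10, and counted genes with featureCounts 2.0.1. The deposited values are raw counts per gene of Ensembl 102, with no normalization, beside a gene length column, another deposited quantity, which was not used. The methods give strand and pair options for the counting (reverse-stranded, both mates mapped), whereas the command stored in the file header gives none, so overlapping and antisense genes are uncertain, and counts may hold both mates of a fragment. The study speaks of biological replicates without saying whether each was a separate animal, and p-values measure only the spread between these samples.
The 4 heart libraries were fitted with edgeR 4.0.16 in R 4.3.3 (filterByExpr, TMM, robust quasi-likelihood test, genotype as the only term), which tested 16632 of 55401 genes with a common biological coefficient of variation of 0.322. Calls needed an adjusted p (Benjamini-Hochberg) below 0.1 and more than a 2-fold change. Pair ratios are differences of log2 CPM with a prior count of 2. DESeq2 1.42.0, other scalings and filters, all 20 libraries, a replicate term, and each library left out were alternatives. The procedure was tested on simulated data.
The members and gene lists were chosen with earlier results of these data known. Named were Nsun6, the 10 genes in each direction with the smallest p among those over 2-fold in both pairs with an unadjusted p under 0.05, in each list up to 4 tested members of highest mean CPM and every member meeting those 2 criteria, the targets with the highest and lowest fold change, and genes called with the replicate term or by DESeq2. Any other gene named was chosen after its values were seen. A few genes are not reported here.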

Additional observations from a re-analysis of the deposited data

How the results depend on the processing

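Without the filter on low counts edgeR called 1 gene higher (Cyp26b1) and 12 lower (Nppa, Fos, Cyp2f2, Msln, Upk3b, and Scgb1a1 among them), DESeq2 called 3 lower, and normalization by RLE size factors, a filter of at least 10 counts in every library, one fit of all 20 libraries, and scaling to the cardiomyocyte list called 0 in either direction. A replicate block, in which the pairing by number enters the fit, called 6 genes lower (Bpifa1, Nppa, Cyp2f2, Ucp1, Scgb3a2, Scgb1a1). The labels do not say that a number marks a shared litter or day, so the main fit holds genotype as its only term. With 2 pairs the deviations of same-numbered libraries correlated at 0.365, a positive value that does not settle whether the numbers pair the samples. Counts of genes over 2-fold in both pairs were 255 higher and 447 lower without the filter, 5 and 22 with at least 10 counts in every library, and 207 and 414 when over 1.5-fold was asked for. Scaled to the cardiomyocyte list, 1466 genes were higher and 6478 lower in both pairs, and 38 were over 2-fold higher. The list medians became -0.025 for cardiomyocyte, -0.050 for cardiac stress, -0.49 for brown fat, -0.077 for endothelium, -0.28 for smooth muscle, -0.11 for the m5C machinery, and -0.13 for the targets. With the replicate block the medians were 0.078 for endothelium, -0.11 for smooth muscle, and -0.063 for the m5C machinery. These shifts follow the construction of the scaling, and the cause of the others was not tested.
Leaving out each library in turn gave 0 to 2 genes called higher and 0 to 21 called lower. The 21 came without WT replicate 1, 12 without KO replicate 2, and 0 without WT replicate 2 or KO replicate 1. A group left with 1 library is assumed to vary like the other. The list medians then ranged over -2.04 to 0.32 (B cell and antibody), -0.026 to 0.18 (Nsun6 targets in the heart), -0.0049 to 0.060 (RNA m5C machinery), -2.71 to -0.77 (T cell and thymus), -2.18 to -0.80 (airway and lung), -1.26 to -0.13 (atrial), -0.44 to 0.19 (brown fat), -0.042 to 0.23 (cardiac stress), 0.084 to 0.19 (cardiomyocyte), -0.077 to 0.34 (circadian clock), -0.16 to 0.22 (endothelium), -2.60 to -0.77 (epicardium and mesothelium), -0.11 to 0.19 (fatty acid oxidation), -0.32 to 0.32 (fibroblast and matrix), -0.61 to 0.73 (glucocorticoid), -0.68 to 0.14 (immediate early), -0.093 to 0.62 (interferon response), -0.31 to 0.053 (macrophage and antigen presentation), -1.08 to 0.064 (nerve and ganglion), -2.10 to -0.19 (neutrophil), -0.47 to 0.39 (oxidative phosphorylation), -0.55 to 0.60 (pacemaker and conduction), -1.16 to 0.82 (red cell), -0.22 to 0.30 (skeletal muscle), -0.87 to 0.24 (smooth muscle and vessel wall), 0.11 to 0.42 (ventricular), -1.89 to 0.99 (white fat). Single genes that changed sign by more than their standard error did so only when a library was left out, over -0.45 to 0.57 (Tnni3), -0.77 to 0.60 (Cacna1g), -0.55 to 0.49 (Tbx3), -0.54 to 0.95 (Cntn2), -0.44 to 0.48 (Fhl2), -0.73 to 0.94 (Myh7), -1.31 to 0.72 (Nppb), -0.52 to 0.36 (Tppp3), -0.64 to 0.73 (Plin4), -3.96 to 2.01 (Scd1), -0.87 to 0.12 (Cidea), -12.504 to 4.497 (Ucp1), -0.44 to 0.52 (Prdm16), -0.42 to 1.03 (Ppargc1b), -1.87 to 1.18 (Igkc), -0.62 to 0.12 (Blk), -1.45 to 0.16 (H2-Aa), -0.31 to 0.35 (F13a1), -0.41 to 0.27 (C1qb), -0.19 to 0.68 (Lcn2), -1.24 to 1.12 (Hbb-bs), -1.58 to 0.74 (Hba-a1), -1.77 to 1.09 (Hbb-bt), -0.43 to 0.48 (Gsn), -0.72 to 0.66 (Col3a1), -0.18 to 0.54 (Aqp1), -0.46 to 0.60 (Emcn), -0.60 to 0.54 (Egfl7), -0.92 to 0.33 (Smtn), -0.68 to 0.31 (Eln), -0.96 to 0.064 (Dbh), -1.19 to 0.22 (Sox10), -0.25 to 0.30 (Myl1), -0.83 to 0.64 (Fabp3), -0.47 to 0.79 (Cox6a2), -0.84 to 0.91 (Jun), -0.77 to 0.39 (Btg2), -0.031 to 1.09 (Mt1), -0.39 to 0.42 (Klf9), -2.63 to 3.32 (Zbtb16), -0.68 to 0.73 (Tsc22d3), -0.042 to 1.02 (Tef), -0.41 to 0.16 (Clock), -0.25 to 2.16 (Dbp), -0.51 to 0.33 (Gbp2), -0.72 to 0.49 (Gbp3), -0.36 to 0.33 (Tet2). Of the 133 named genes tested, turns of sign of any size numbered 4 with DESeq2, 10 with the replicate block, 22 with the cardiomyocyte scaling, and 21 to 31 with a library left out. Depth limits genes under 1 CPM, which rest on few counts per library.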
